A study of Mus musculus with 13 samples.

Results

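The 10 genes described here are *Hsf1*, which encodes the main transcription factor of the heat shock response, and 9 genes of the cytosolic HSP70 and HSP90 chaperone machinery. They were taken by name for what their proteins do, by a rule that uses no measured value but was set with earlier results of these data known. They are 10 of the 34419 genes counted in gluteal white adipose tissue (WAT), a subcutaneous fat depot of the mouse hindquarters. RNA of this depot was sequenced from male C57BL/6J mice with no transgene or deletion. At 13 weeks of age, 7 of them had been kept at 22°C since birth and 6 at 29°C, which is close to thermoneutrality for a mouse. The fur of the hindquarters was removed from weaning on in every mouse of both groups, so the 29°C controls lacked that fur as well. All 10 genes passed the filter on low counts and were among the 17779 genes tested.

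Heat shock proteins hold unfolded proteins until these reach their native state. HSP70 binds short stretches of an unfolded chain in a cycle driven by ATP, which J-domain proteins start and nucleotide exchange factors of the HSP110 family end. HSP90 takes over later steps for many kinases and steroid receptors, and HSF1, which HSP70 and HSP90 hold back in unstressed cells, raises transcription of many of these genes after heat. The comparison asked whether mRNA of this machinery differed in a white fat depot that lay in cooler surroundings for the whole life of the mouse.

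Library totals ran from 22356637 to 25245785 counts and fell into 2 clusters. The lower cluster held 5 libraries, all at 22°C, and the higher cluster held the other 2 at 22°C with all 6 at 29°C, so values within the higher cluster are given beside the members and the called genes. The 12 adipocyte genes summed to between 25202 and 39059 CPM at 22°C and between 31963 and 39137 CPM at 29°C, and so were abundant in every library (CPM, the count scaled to a common library size with TMM factors). Of the 12, 7 had lower and 5 higher means at 22°C. Only *Lep* was called, lower at 22°C (log2 fold change -0.78, P-adj = 0.0564). Skeletal muscle mRNA was present in uneven amounts: its 18 genes summed to between 958 and 96665 CPM at 22°C and between 177 and 7754 CPM at 29°C. Of 6 brown fat genes, 3 were called higher at 22°C (*Cidea*, *Otop1* and *Cox8b*), against 1.94% of all genes called in either direction. *Dio2* had a log2 fold change of 2.17 (P-adj = 0.122) and *Elovl3* of -0.03 (P-adj = 0.992). *Ucp1*, the defining gene, was not tested, with at most 7 counts in any library. Summed, the list reached 33.2 to 147 CPM in the 22°C mice, against 7.80 to 23.1 CPM in the others. By group means, most of this sum was *Cox8b*, with 50.1 CPM in the 22°C mice and 10.4 CPM in the others. *Cidea* came next, with means of 13.2 CPM and 2.31 CPM. The sum therefore mainly follows a single gene, and the part of muscle mRNA in the *Cox8b* values was not tested. The part of muscle and brown fat genes in the member values was not tested, apart from the muscle score used below. In bulk tissue, fewer cells of a type and less RNA per cell cannot be told apart.

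*Hspa4l* was the only member that passed the test, and it was lower at 22°C. Of the 10 members, 9 had a lower mean at 22°C on the log2 scale, and 1 of them had an adjusted p (P-adj, edgeR quasi-likelihood test with Benjamini-Hochberg adjustment over all 17779 genes) below 0.1. Over all genes tested 1.94% were called, and 1.21% were called lower at 22°C. Without adjustment, 6 members were lower at p below 0.05, against 8.2% of all genes. The median log2 fold change (22°C minus 29°C) of the members was -0.27, while that of all genes was 0.0074, with 48.4% of all genes lower at 22°C. By DESeq2, 5 members were called, all lower at 22°C, against 4.65% of the 16388 genes DESeq2 tested. DESeq2 called 914 of those genes higher at 22°C. Within the libraries with higher totals, 8 of the 10 members were lower at 22°C with a median of -0.23, and 0 were called by edgeR, with 1 at unadjusted p below 0.05. In that subset 8 genes were called in all.

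**Figure D1:**
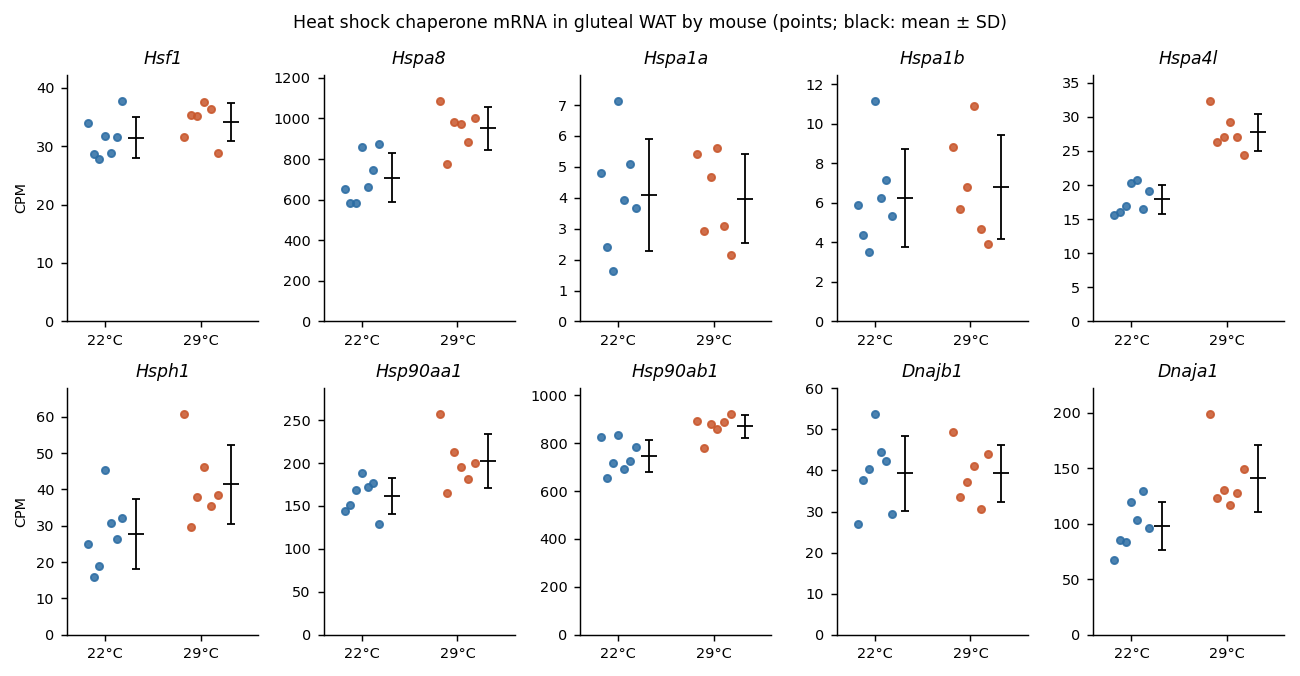
Level of each member in each mouse, in CPM on axes that start at 0, for 7 mice at 22°C (blue) and 6 at 29°C (orange). Black marks give the mean ± SD. The mice of both groups overlap for every member except *Hspa4l*, where all 22°C mice reach at most 20.7 CPM and all 29°C mice at least 24.4 CPM.

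**Figure D2:**
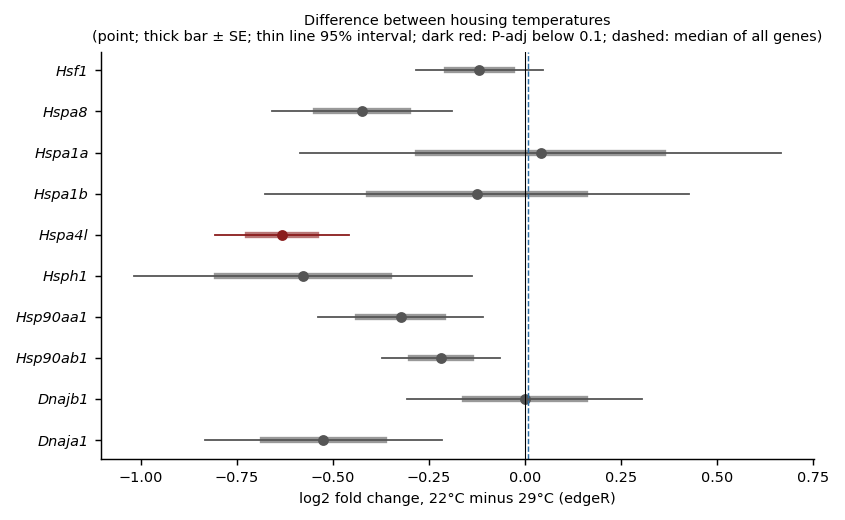
Log2 fold change of each member, 22°C minus 29°C, from edgeR. The point is the estimate, the thick bar the SE, the thin line the 95% interval and the dashed line the median of all genes (0.0074). *Hspa4l*, in dark red, is the member with P-adj below 0.1, and the intervals of *Hsf1*, *Hspa1a*, *Hspa1b* and *Dnajb1* cross 0.

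*Hsf1* itself (ENSMUSG00000022556.12) ran from 27.7 to 37.7 CPM at 22°C (median 31.5) and from 28.8 to 37.5 CPM at 29°C (median 35.3). The ranges nearly coincided. On the log2 scale 22°C differed from 29°C by -0.12 ± 0.084 (SE, P-adj = 0.478), with a 95% interval of -0.28 to 0.046. Within the libraries with higher totals the value was 0.013 (P-adj = 0.978). The mRNA level of *Hsf1* says nothing of the trimer formation and phosphorylation by which the protein is switched on.

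*Hspa1a* (ENSMUSG00000091971.4) and *Hspa1b* (ENSMUSG00000090877.4) encode the stress-inducible HSP70, whose mRNA is scarce without heat. With *Hspa4l* (1.90 CPM per kb) they were the lowest members when mean levels were divided by exon length, at 1.36 CPM per kb for *Hspa1a* and 2.32 CPM per kb for *Hspa1b*. *Hspa1a* ran from 1.63 to 7.13 CPM at 22°C (median 3.94) and from 2.15 to 5.60 CPM at 29°C (median 3.88). *Hspa1b* ran from 3.53 to 11.2 CPM at 22°C (median 5.90) and from 3.92 to 10.9 CPM at 29°C (median 6.24). The groups overlapped over nearly their whole range and mice of the same group differed widely, with a coefficient of variation of 44.4% for *Hspa1a* and 39.7% for *Hspa1b* at 22°C. The log2 fold changes were 0.04 ± 0.32 for *Hspa1a* (P-adj = 0.962) and -0.12 ± 0.28 for *Hspa1b* (P-adj = 0.847). These intervals are wide, from -0.58 to 0.67 for *Hspa1a* and from -0.68 to 0.43 for *Hspa1b* and so leave room for a change in either direction.

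Both genes lie next to each other on chromosome 17 and are nearly identical in sequence. Their upstream regions are shown because these are nearly identical as well. Each is the 250 bases before the start of the gene, from RefSeq on GRCm38.p6, minus strand, written 5′ to 3′ in gene orientation. Capitals mark the 3 bases that differ, which are C44T, T47C and T249G counted from the 5′ end, with the *Hspa1a* base first.
*Hspa1a* chr17:34972157-34972406: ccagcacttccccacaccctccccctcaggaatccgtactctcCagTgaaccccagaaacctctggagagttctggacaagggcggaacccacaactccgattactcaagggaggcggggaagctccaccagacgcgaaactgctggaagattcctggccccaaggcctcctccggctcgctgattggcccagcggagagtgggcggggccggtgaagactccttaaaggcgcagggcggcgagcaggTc
*Hspa1b* chr17:34959239-34959488: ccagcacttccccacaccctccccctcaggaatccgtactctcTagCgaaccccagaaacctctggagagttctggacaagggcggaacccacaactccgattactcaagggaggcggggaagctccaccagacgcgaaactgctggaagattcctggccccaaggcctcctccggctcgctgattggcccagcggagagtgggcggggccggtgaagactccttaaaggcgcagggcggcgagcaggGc
The 250 bases were 98.8% identical. The transcripts also share sequence: 56.5% of the 100-base windows of the longest *Hspa1a* transcript and 49.9% of those of *Hspa1b* occur in another annotated gene, chiefly each other. How the authors treated reads that map to several places is not given in the sources used here, so the split of reads between the genes is uncertain. With both counts added, the level was 10.3 ± 4.25 CPM at 22°C (SD, n = 7) and 10.8 ± 4.03 CPM at 29°C (SD, n = 6), a log2 fold change of -0.06 ± 0.29 (P-adj = 0.934). In the annotation at hand, exons of another gene, *Gm20481*, cover 564 bases of *Hspa1a* on the opposite strand.

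*Hspa8* (ENSMUSG00000015656.18), the constitutive HSP70 (HSC70), was the second most abundant member at 191 CPM per kb. It ran from 583 to 874 CPM at 22°C (median 663) and from 778 to 1086 CPM at 29°C (median 978). Only the 2 highest mice at 22°C, replicates 4 and 7, reached into the 29°C range. The level at 22°C was 0.745 of that at 29°C, a log2 fold change of -0.42 ± 0.12, and P-adj = 0.119 missed the threshold by edgeR while DESeq2 gave P-adj = 0.0156. Within the libraries with higher totals the log2 fold change was -0.24 (P-adj = 0.559). A processed pseudogene, *Gm15459*, shares 58.5% of the 100-base windows of the *Hspa8* transcript, and was counted at 3.71 ± 0.805 CPM at 22°C and 5.43 ± 1.08 CPM at 29°C. The count of *Hspa8* is uncertain as far as such reads were split or dropped.

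The HSP110 proteins release ADP from HSP70 and so let it let go of its client. *Hspa4l* (ENSMUSG00000025757.14), a member of this family known for its abundance in testis, ran from 15.6 to 20.7 CPM at 22°C (median 16.9) and from 24.4 to 32.3 CPM at 29°C (median 27.0). The groups did not overlap, which held for 1.24% of all genes. *Hspa4l* fell by 35.5% at 22°C, from 27.7 ± 2.73 CPM (SD, n = 6) to 17.9 ± 2.12 CPM (SD, n = 7), a log2 fold change of -0.63 ± 0.089 (P-adj = 0.0101). It was called in 13 of 13 fits that left out 1 mouse, with P-adj between 0.0106 and 0.0285. With the muscle score, the mean log2 CPM of the 18 muscle genes, as a covariate, the log2 fold change was -0.67 (P-adj = 0.0300). Without 22°C replicates 1 and 7, the libraries with the lowest TMM factors, it was -0.62 (P-adj = 0.0289). Within the libraries with higher totals the value was as large, -0.65 ± 0.12, but P-adj was 0.230 with 2 mice left at 22°C. Its close relative *Hspa4*, the broadly expressed HSP110 gene, was at 101 ± 13.9 CPM and 116 ± 14.0 CPM, with a log2 fold change of -0.19 ± 0.10 (P-adj = 0.322). The ratio of *Hspa4l* to *Hspa4* CPM had a median of 0.182 at 22°C (0.130 to 0.219) and of 0.248 at 29°C (0.191 to 0.270), so these ranges overlapped.

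*Hsph1* (ENSMUSG00000029657.16) encodes HSP105, the heat-inducible HSP110. It ran from 15.9 to 45.3 CPM at 22°C (median 26.2) and from 29.8 to 60.7 CPM at 29°C (median 38.2). The groups overlapped, with 22°C replicate 4 above 4 of the 29°C mice. The log2 fold change of -0.58 ± 0.22 was close to that of *Hspa4l*, but P-adj was 0.205, and it lay between -0.74 without 22°C replicate 4 and -0.44 without 29°C replicate 1. The libraries with higher totals alone gave -0.51 (P-adj = 0.439).

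The upstream regions of the 2 HSP110 genes are shown because HSF1 binds heat shock elements, inverted repeats of GAA, and these windows differ in them. Each is the 250 bases before the RefSeq start on GRCm38.p6, minus strand for *Hsph1* and plus strand for *Hspa4l*, with a pair of units (GAANNTTC or TTCNNGAA) in capitals.
*Hsph1* chr5:149636337-149636586: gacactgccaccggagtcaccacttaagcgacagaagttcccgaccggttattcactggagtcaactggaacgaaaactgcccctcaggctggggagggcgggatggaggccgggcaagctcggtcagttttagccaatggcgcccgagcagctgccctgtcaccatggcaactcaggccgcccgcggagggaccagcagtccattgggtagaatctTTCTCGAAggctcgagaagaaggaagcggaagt
*Hspa4l* chr3:40745363-40745612: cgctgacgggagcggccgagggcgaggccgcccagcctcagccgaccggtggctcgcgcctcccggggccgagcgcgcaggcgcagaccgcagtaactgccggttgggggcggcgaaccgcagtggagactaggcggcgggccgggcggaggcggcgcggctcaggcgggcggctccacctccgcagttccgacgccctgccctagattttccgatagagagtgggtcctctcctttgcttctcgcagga
Windows of 300 bases, from 250 before to 50 after a start, were at hand for 6 members: *Hspa1a*, *Hspa1b*, *Hspa4l*, *Hsph1*, *Dnajb1* and *Dnaja1*. A pair of units on either strand occurred in 4 of the 6, namely *Hspa1a*, *Hspa1b*, *Hsph1* and 1 of 3 windows of *Dnaja1*, against 17.0% of the 27025 genes with a window. The upstream regions of *Hspa1a* and *Hspa1b* are 98.8% identical, so these 2 are not separate cases. The share among the members was not tested against that of all genes. A run of 3 alternating units, which holds pairs within it, occurred only in *Hsph1*, as TTCTGGAAAGTTC that begins 37 bases after the start, and in 0.662% of those genes. In *Hspa1a* and *Hspa1b* the pair GAAGATTC begins 104 bases before the start. The windows of *Hspa4l* and *Dnajb1* held neither motif.

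*Hsp90ab1* (ENSMUSG00000023944.15), the constitutive HSP90 beta, was the most abundant member at 268 CPM per kb. It ran from 656 to 833 CPM at 22°C (median 726) and from 781 to 921 CPM at 29°C (median 884). The 29°C group lay higher, and the ranges overlapped between 781 and 833 CPM, where 22°C replicates 1, 4 and 7 met 29°C replicate 2. The log2 fold change was -0.22 ± 0.078 (P-adj = 0.184 by edgeR, 0.0391 by DESeq2), and within the libraries with higher totals it was -0.21 (P-adj = 0.472).

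*Hsp90aa1* (ENSMUSG00000021270.14), the stress-inducible HSP90 alpha, had 45.8 CPM per kb. It ran from 129 to 188 CPM at 22°C (median 168) and from 165 to 257 CPM at 29°C (median 198). The highest mouse was 29°C replicate 1 and the lowest 22°C replicate 7. The log2 fold change was -0.32 ± 0.11 (P-adj = 0.171 by edgeR, 0.0670 by DESeq2), and within the libraries with higher totals it was -0.41 (P-adj = 0.391). The pseudogene *Gm12346* shares 39.6% of the 100-base windows of the *Hsp90aa1* transcript and was counted at 0.758 ± 0.246 CPM and 1.23 ± 0.318 CPM. The balance of the isoforms overlapped between the groups, where the ratio of *Hsp90aa1* to *Hsp90ab1* CPM had a median of 0.230 at 22°C (0.164 to 0.248) and 0.222 at 29°C (0.204 to 0.288).

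Of the J-domain partners of HSP70, neither was called by edgeR. *Dnaja1* (ENSMUSG00000028410.14), a class A J-domain protein that binds clients for HSC70, ran from 67.8 to 130 CPM at 22°C (median 96.6) and from 117 to 199 CPM at 29°C (median 129). At 22°C only replicates 4 and 6 reached the 29°C range. The log2 fold change was -0.52 ± 0.16 (P-adj = 0.137 by edgeR, 0.0326 by DESeq2). Without 22°C replicate 6 it was called by edgeR as well, at -0.60 (P-adj = 0.0817), and within the libraries with higher totals it was -0.33 (P-adj = 0.565). The pseudogene *Gm15542* shares 13.0% of the 100-base windows of the *Dnaja1* transcript and was counted at 0.794 ± 0.126 CPM and 1.18 ± 0.284 CPM. Exons of *Smu1* cover 608 of the 8629 exon bases of *Dnaja1* on the opposite strand, and *Smu1* had a log2 fold change of 0.05 ± 0.060 (P-adj = 0.689).

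*Dnajb1* (ENSMUSG00000005483.11), the HSP40 that is induced with HSP70 by heat, ran from 27.0 to 53.7 CPM at 22°C (median 40.5) and from 30.6 to 49.4 CPM at 29°C (median 39.2). The range at 29°C lay inside that at 22°C. The group means were 39.3 ± 9.08 CPM (SD, n = 7) and 39.3 ± 6.96 CPM (SD, n = 6), and the 95% interval of the log2 fold change was -0.31 to 0.31. The libraries with higher totals alone gave -0.14 (P-adj = 0.811). The ratio of *Dnaja1* to *Dnajb1* CPM had a median of 2.32 at 22°C (2.06 to 3.28) and 3.59 at 29°C (2.85 to 4.17), a shift in which the ranges overlapped and which was not tested.

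**Figure D3:**
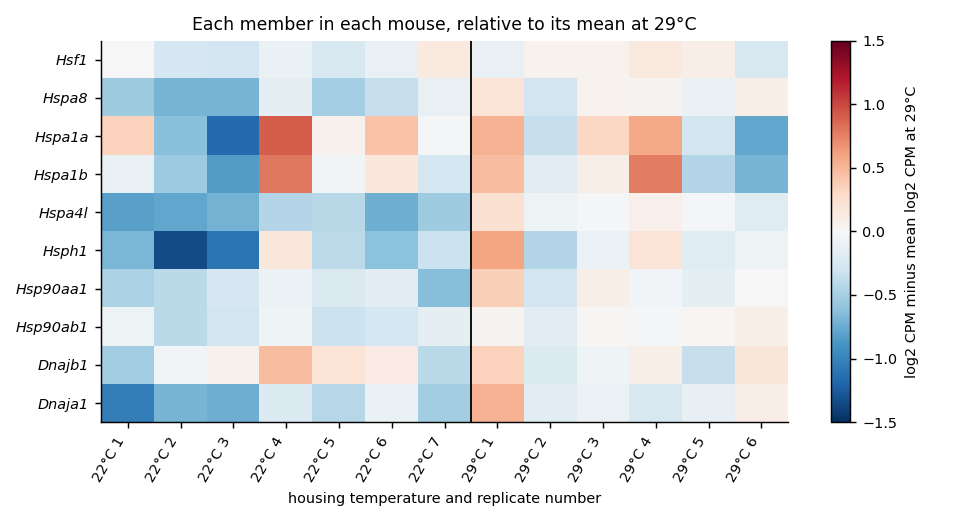
Each member in each mouse as log2 CPM minus the member's mean log2 CPM at 29°C, with 22°C mice left of the black line. Blue is lower and red is higher. The columns of 22°C replicates 2 and 3 are blue over nearly all rows, 22°C replicate 4 holds the highest *Hspa1a* and *Hspa1b* of its group, and *Hspa4l* is blue in all 7 mice at 22°C.

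A few mice were at the top or bottom of their group for many members. At 22°C, replicate 4 was the highest mouse for 6 of the 10 members and replicate 3 the lowest for 4. At 29°C, replicate 1 was the highest for 6 members, and replicates 2 and 6 were each the lowest for 4. The mean of the standardized log2 CPM of the 10 members was highest in 29°C replicate 1 (1.27) and lowest in 22°C replicate 2 (-1.16), and 22°C replicate 4 (0.645) lay above 4 of the 6 mice at 29°C. The groups therefore overlapped on this score.

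Functional partners were then compared from mouse to mouse in 8 pairs, on log2 CPM, with permutation p-values (100000 resamples, two-sided) adjusted over the 8 pairs. The closest pair was *Hspa1a* with *Hspa1b*, with Pearson r = 0.93 and Spearman rho = 0.97 over 13 mice (permutation p = 1e-05 for each, the smallest these resamples can give, P-adj = 4e-05 and 8e-05). The value was as high within 22°C (r = 0.95, exact permutation p = 0.00179, P-adj = 0.0143), within 29°C (r = 0.95, exact permutation p = 0.00833, P-adj = 0.0667), within the libraries with higher totals (r = 0.92, exact permutation p = 0.00139, P-adj = 0.00556) and without the mice farthest from the median of *Hspa1a* (r = 0.91, n = 11, permutation p = 0.00015). Shared reads bear on this pair as given above, and their part in it was not tested.

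*Hspa8* and *Hsph1*, a chaperone and a nucleotide exchange factor that share no 50-base window, gave r = 0.91 and rho = 0.90 over 13 mice (permutation p = 1e-05 and 8e-05, P-adj = 4e-05 and 0.00032). The pair gave r = 0.86 within 22°C (exact permutation p = 0.0115, P-adj = 0.0460), r = 0.86 within 29°C (exact permutation p = 0.0208, P-adj = 0.0833), r = 0.91 within the libraries with higher totals (exact permutation p = 0.00124, P-adj = 0.00556) and r = 0.83 without the mice farthest from the median of *Hspa8* (n = 11, permutation p = 0.0013). The adjusted value thus passed 0.05 within 22°C and not within 29°C, where r was as high over 6 mice.

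*Hspa8* and *Dnaja1* gave r = 0.81 and rho = 0.81 over 13 mice (permutation p = 0.00057 and 0.00118, P-adj = 0.00132 and 0.00286), and r = 0.75 without the mice farthest from the median of *Hspa8* (n = 11, permutation p = 0.0047). Within the groups r was 0.59 at 22°C (exact permutation p = 0.167) and 0.67 at 29°C (exact permutation p = 0.151), and within the libraries with higher totals it was 0.55 (exact permutation p = 0.156), so this relation did not pass within any of them. For *Hsph1* with *Hspa4l*, r was 0.81 over 13 mice (permutation p = 0.00066, P-adj = 0.00132). Like every value over the 13 mice, it includes any difference between the groups, here the one called in *Hspa4l*. Within groups r was 0.77 for 22°C (exact permutation p = 0.0482, P-adj = 0.129) and 0.82 for 29°C (exact permutation p = 0.0542, P-adj = 0.144), and neither adjusted value passed 0.05. Over the 8 libraries with higher totals, which hold mice of both temperatures, r was 0.80 (exact permutation p = 0.0173, P-adj = 0.0461).

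The pairs that include *Hsf1* did not pass. *Hsf1* with *Hspa1a* gave r = 0.45 and rho = 0.40 over 13 mice (permutation p = 0.123 and 0.183, P-adj = 0.164 and 0.245), and *Hsf1* with *Hsp90aa1* gave r = -0.11 and rho = -0.04 (permutation p = 0.713 and 0.893, P-adj = 0.713 and 0.893). *Hspa1a* with its J-domain partner *Dnajb1* gave r = 0.24 and rho = 0.35 (permutation p = 0.422 and 0.238, P-adj = 0.482 and 0.272). *Hsp90aa1* with *Hsp90ab1* gave r = 0.56 and rho = 0.71 (permutation p = 0.0436 and 0.00708, P-adj = 0.0697 and 0.0113) but r = -0.08 within 22°C (exact permutation p = 0.860) and 0.60 within 29°C (exact permutation p = 0.226). Without the mice farthest from the median of the first gene (n = 11), r was 0.43, 0.09, 0.55 and 0.62 for these 4 pairs in the order given.

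**Figure D4:**
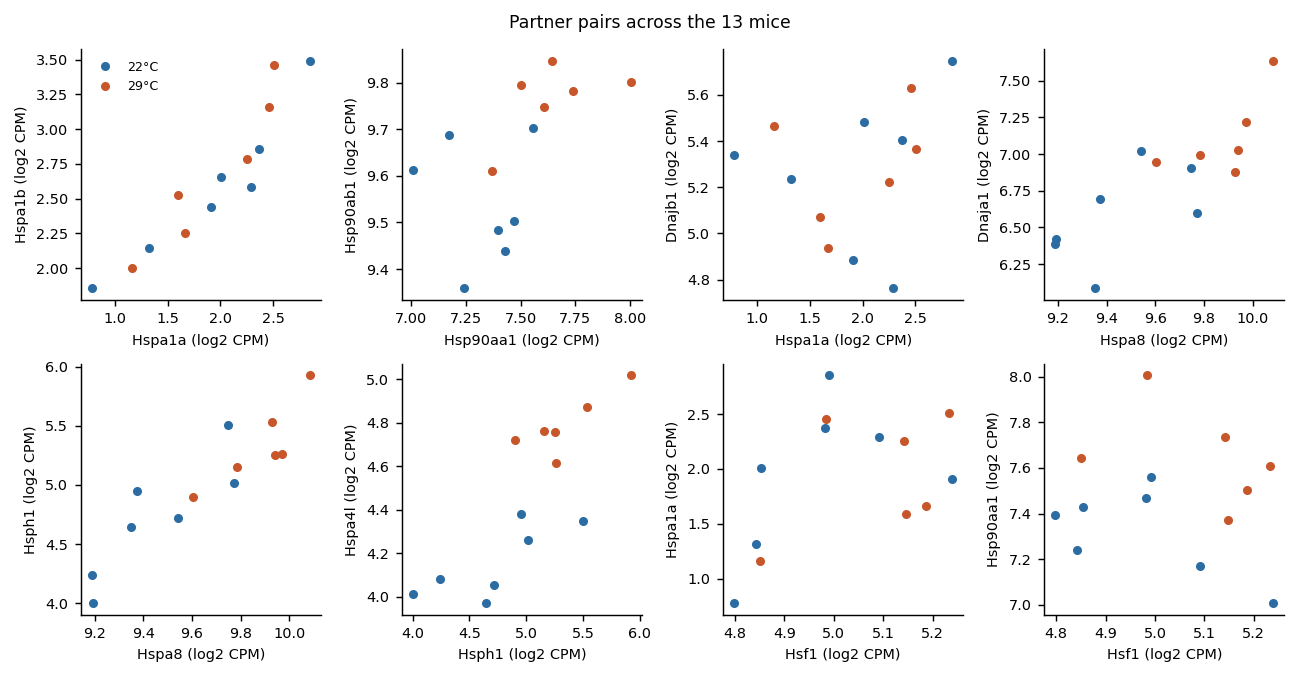
The 8 partner pairs, each point a mouse, with both axes in log2 CPM (22°C blue, 29°C orange). *Hspa1a* with *Hspa1b* and *Hspa8* with *Hsph1* lie along a line that runs through both groups, while the 2 *Hsf1* panels show no such line and in *Hsph1* with *Hspa4l* the groups form separate bands.

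Outside the members, the genes whose log2 CPM followed the members' mean most closely over the 13 libraries were *P4ha1* (r = 0.946), *Hspa5* (0.914), *Fam174b* (0.907), *Dctd* (0.905) and *Zfp207* (0.896). These values are a description over libraries that also share housing temperature and depth. With the group means taken out, r was 0.910 for *P4ha1*, 0.840 for *Hspa5*, 0.852 for *Fam174b*, 0.823 for *Dctd* and 0.833 for *Zfp207*. Depth was not taken out. *P4ha1*, a collagen prolyl 4-hydroxylase subunit of the endoplasmic reticulum (ER), was itself called lower at 22°C, with a log2 fold change of -0.44 (P-adj = 0.0873), and *Hspa5* encodes BiP, the HSP70 of the ER.

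The remaining chaperone network was counted by list. Among the other heat shock factor genes, 4 of 6 were tested and *Hsf4*, a factor known from the lens, was called higher at 22°C, at 5.14 ± 1.47 CPM against 2.75 ± 0.694 CPM (log2 fold change 0.90 ± 0.21, P-adj = 0.0817). The ranges, 3.35 to 7.33 CPM at 22°C and 2.12 to 4.02 CPM at 29°C, overlapped. *Hsf4* was called in 5 of 13 fits that left out a mouse, and lost the call without 22°C replicate 1, 4 or 7 or any 29°C mouse but replicate 4. It was also lost with the muscle score (0.68, P-adj = 0.234), with the cluster of totals (1.26, P-adj = 0.162) and within the higher totals (1.25, P-adj = 0.230). *Hsf2* had a log2 fold change of 0.49 ± 0.14 (P-adj = 0.127), *Hsf3* of -0.57 ± 0.16 (P-adj = 0.122) and *Hsbp1*, which encodes a small protein that binds HSF1, of -0.12 ± 0.063 (P-adj = 0.316). DESeq2 also called *Hsf2* higher (P-adj = 0.0323) and *Hsf3* lower (P-adj = 0.0246).

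Of the 6 other cytosolic HSP70 and HSP110 genes, 5 had lower means at 22°C and 1 was called, against 1.21% of all genes called lower. That gene was *Hspa12a*, an atypical HSP70 abundant in brain, at 84.0 to 141 CPM at 22°C (median 118) and 132 to 190 CPM at 29°C (median 163), with a log2 fold change of -0.48 ± 0.12 (P-adj = 0.0924). It was called in 2 of 13 fits that left out a mouse, those without 22°C replicate 3 or 6, and lost the call with the muscle score (-0.46, P-adj = 0.231), with the cluster of totals (-0.69, P-adj = 0.201) and within the higher totals (-0.69, P-adj = 0.263). *Hspa12b* had -0.37 ± 0.14 (P-adj = 0.199). *Hspa1l* was called higher by DESeq2 (P-adj = 0.0504) and not by edgeR (P-adj = 0.192), and had a log2 fold change of 0.18 under the muscle score (P-adj = 0.906).

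The other 12 J-domain genes and 11 HSP70 co-chaperones gave no call by edgeR, with medians of 0.05 and 0.0089 on the log2 scale. At unadjusted p below 0.05 there were 1 higher and 1 lower J-domain gene and 2 higher and 1 lower co-chaperone, and DESeq2 called *Dnajb5* and *Bag2* higher and *Stip1* lower. The most abundant J-domain genes were *Dnajc5* (log2 fold change 0.06, P-adj = 0.489), *Dnaja2* (-0.01, P-adj = 0.966) and *Dnajc7* (0.04, P-adj = 0.792). Among the HSP70 co-chaperones these were *St13* (-0.15, P-adj = 0.381), *Bag6* (0.01, P-adj = 0.970) and *Bag1* (-0.0020, P-adj = 0.995). Of 17 HSP90 co-chaperones, 15 had lower means at 22°C, and 3 of them were at unadjusted p below 0.05, against 8.2% of all genes. None was called by edgeR, while DESeq2 called 3 lower (*Ppid*, *Chordc1* and *Unc45a*), against 4.65% of the genes DESeq2 tested. Their median was -0.08, and the most abundant were *Fkbp8* (-0.02, P-adj = 0.930), *Fkbp5* (-0.42, P-adj = 0.465) and *Cdc37l1* (-0.08, P-adj = 0.606).

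Of the 6 chaperones of the ER and mitochondria, 2 were called, both of the ER and both lower at 22°C, against 1.21% of all genes called lower. *Hsp90b1*, the HSP90 of the ER, fell from 372 ± 31.4 CPM at 29°C to 291 ± 14.3 CPM at 22°C (log2 fold change -0.35 ± 0.067, P-adj = 0.0503), and its groups did not overlap. *Hyou1*, the HSP110 of the ER, fell from 72.6 ± 6.97 CPM to 53.7 ± 6.27 CPM (log2 fold change -0.44 ± 0.085, P-adj = 0.0560). Each was called in 12 of 13 fits that left out a mouse, and lost the call without 29°C replicate 3 (P-adj = 0.147). With the muscle score the calls were lost too, at -0.34 for *Hsp90b1* (P-adj = 0.134) and -0.41 for *Hyou1* (P-adj = 0.141). Within the libraries with higher totals they had log2 fold changes of -0.38 (P-adj = 0.275) and -0.32 (P-adj = 0.314). *Hspa5* had -0.43 ± 0.12 (P-adj = 0.119 by edgeR, 0.0195 by DESeq2), while the mitochondrial *Hspa9* had 0.08 ± 0.11 (P-adj = 0.732) and *Trap1* -0.01 ± 0.076 (P-adj = 0.947).

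The small heat shock proteins hold aggregating proteins without ATP. All 7 tested had higher means at 22°C, and the median of their log2 fold changes was 0.89. None was called by edgeR, 4 were at unadjusted p below 0.05 and DESeq2 called 3 of them higher (*Hspb2*, *Hspb6* and *Hspb7*). Among all 16388 genes it tested, DESeq2 called 914 higher. The share of all genes higher at that unadjusted p was not counted. The most abundant were *Cryab* (log2 fold change 0.31, P-adj = 0.713), *Hspb6* (2.40, P-adj = 0.175) and *Hspb8* (0.24, P-adj = 0.588). These genes are strongly expressed in muscle, and muscle mRNA was uneven between the libraries. The part of muscle mRNA in the values of this list was not tested. *Hspb6* ran from 35.8 to 822 CPM at 22°C (median 67.5) and from 21.9 to 96.9 CPM at 29°C (median 41.9). With the muscle score as a covariate the log2 fold change of *Hspb6* was 0.30 (P-adj = 0.896) and that of *Hspb7* was 0.04 (P-adj = 0.990), against 3.34 for *Hspb7* without it (P-adj = 0.210). Under the same covariate *Hspb2* had 0.15 and *Hspb3* 0.0064, while *Hspb1* (-0.34), *Hspb8* (-0.07) and *Cryab* (-0.43) changed sign. All 18 muscle genes had higher means at 22°C, so the score is not independent of housing temperature.

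**Figure D5:**
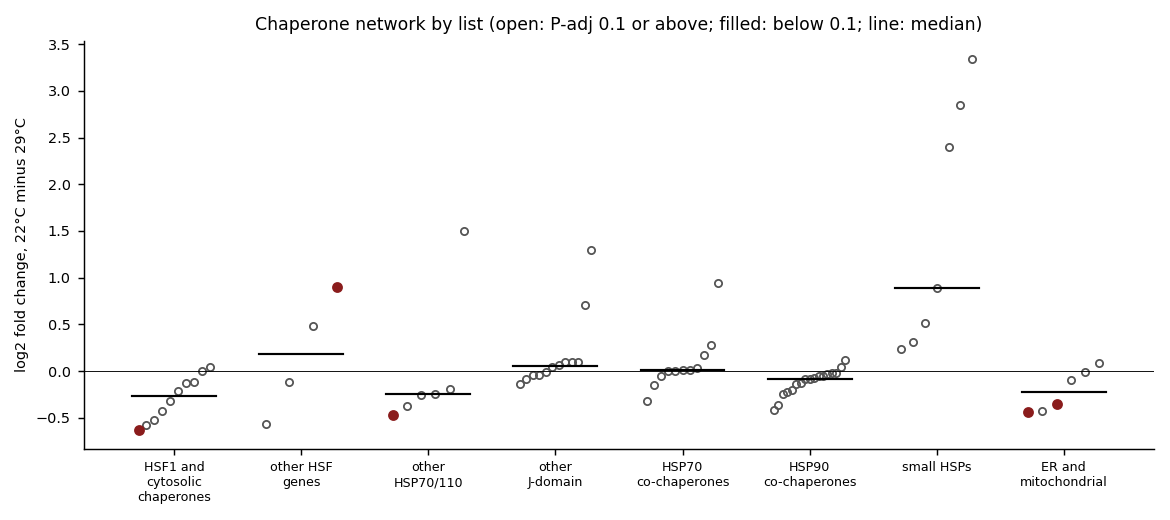
Log2 fold change (22°C minus 29°C) of each tested gene by list, with the median of the list as a line and genes with P-adj below 0.1 filled. The members and the ER chaperones lie mostly below 0, the J-domain genes and HSP70 co-chaperones lie around it, and the small heat shock proteins lie above it.

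Genes that answer to handling and dissection were also counted. Of 14 immediate early genes, 11 had higher means at 22°C and 1 was called higher, and their sum ran from 293 to 599 CPM at 22°C (median 476) and from 225 to 557 CPM at 29°C (median 336). Their part in the member values was not tested.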

How the data were processed

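RNA-seq of gluteal WAT from 13 mice was split by housing temperature as the labels give it. Per the labels, the authors checked reads with FastQC, aligned them with STAR 2.7.5a to GRCm39 and counted them with featureCounts, and the deposited file holds raw counts per gene. The authors also deposited regularized log2 values made with DESeq2. The gene annotation, the strand setting and the treatment of reads that map to several places are not given in the sources used here. Symbols were matched by identifier for 34006 of 34419 genes, and no coordinates are given for the counts.

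Counts were tested with edgeR 4.0.16 (R 4.3.3; TMM factors, filterByExpr, quasi-likelihood F-test, both groups in 1 fit, P-adj below 0.1). CPM are scaled by TMM factors, log2 CPM use a prior count of 2, and a count of 0 allows up to 3 counts, for counting error only. The script was tested on simulated data. Alternatives used DESeq2 1.42.0, limma 3.58.1 on the deposited log2 values, other filters, covariates and subsets of mice. Named genes were all members, the called genes and the 3 most abundant tested genes of each other chaperone list, and the 5 genes most like the members' mean; others named were chosen after their values were seen. Standard errors were the log2 fold change over the root of F, with normal 95% intervals. Correlations were permuted in NumPy 2.4.6. Exon lengths, shared 100-base windows and overlaps came from GENCODE M21, promoters from RefSeq on GRCm38.p6. The members and lists were chosen with earlier results of these data known. P-values measure the spread between these mice.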

Additional observations from a re-analysis of the deposited data

How the results depend on the processing

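The call of *Hspa4l* was kept with DESeq2, DESeq2 size factors, limma on the deposited log2 values, every filter, the muscle score, P-adj below 0.05 and each mouse left out, and was lost only where the cluster of library totals was a covariate (-0.64, P-adj = 0.201) or the higher totals stood alone (-0.65, P-adj = 0.230), fits with 2 and 1 members at unadjusted p below 0.05. The number of genes called depended far more on the choice: 345 in the reported fit, 1676 with DESeq2, 42 without a filter, 46 with the muscle score, 40 at P-adj below 0.05, 4 with the cluster of totals and 8 with the higher totals alone. Leaving out a mouse gave 32 (without 29°C replicate 3) to 652 genes (without 22°C replicate 6), and every such fit except that without 22°C replicate 2 moved the count by over 1.5 times. Members called were 5 with DESeq2, 2 under the replicate block and 0 with the cluster of totals or the higher totals alone, and 1 to 2 with a mouse left out. Members higher at 22°C were 2 with a mean of at least 10 counts, under the replicate block, with the cluster of totals, with the higher totals alone and without 22°C replicates 1 and 7 (a choice made after seeing the data), and 0 to 3 with a mouse left out, against 1 as reported. The cause of these shifts was not tested. With the muscle score, 1 of the 10 members was higher at 22°C, and the median log2 fold change of the members was -0.30.

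Members near 0 changed sign. *Dnajb1* became 0.00018 with a mean of at least 10 counts, 0.052 under the replicate block, 0.10 with the muscle score, 0.15 without 22°C replicates 1 and 7, and -0.092 to 0.075 with a mouse left out. *Hspa1a* became -0.21 with the muscle score, -0.061 when summed with *Hspa1b*, and -0.15 to 0.18 with a mouse left out. *Hspa1b* ran from -0.33 to 0.060 with a mouse left out. *Hsf1* became 0.020 with the cluster of totals and 0.013 with the higher totals alone. Pairs of members with an adjusted permutation p of Pearson r below 0.05 were 4 of 8 over the 13 mice, *Hsph1* with *Hspa4l* among them. With a mouse left out they were 4 to 5. By Spearman rho, *Hsp90aa1* with *Hsp90ab1* also passed over the 13 mice (permutation P-adj = 0.0113).

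Replicate numbers are shared by 6 mice of each group. Same-numbered libraries correlated at 0.0508 to 0.513 in their deviations from the group means, above 0.1 in 5 of 6 pairs. Of 12 libraries, 7 correlated best with their own number. The labels do not say whether the numbers mark pairs, and the reported fit did not use them. Whether same-numbered libraries belong together was not tested. The replicate block, which drops 22°C replicate 7, gave 263 genes and called *Hspa8* (-0.49, P-adj = 0.0976) beside *Hspa4l* (P-adj = 0.0508). Under it *Hsf4* (P-adj = 0.109), *Hspa12a* (P-adj = 0.125) and *Hsp90b1* (P-adj = 0.116) were not called.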
